A study of Mus musculus with 6 samples.

Results

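The 8 genes Gata2, Gata3, Tal1, Lhx1, Lhx5, Pax2, En1 and En2 encode transcription factors. Those other than EN2 set up inhibitory neurons in the developing hindbrain and spinal cord. The 8 genes were taken as the probe sets that the array's annotation assigns to 1 of them alone. Each gene's probe set of highest mean was used, with the others as a check. The genes were chosen by family and on their levels in the superior olive against the cochlear nucleus. The differences between nuclei are therefore given below as a description, without a test. Of the 8 genes, 7 had such a probe set, out of 18194 genes so represented, and Pax2 had none named here and was not analysed. A filter on low values kept genes whose mean over the arrays was at least 5.57 log2 units, the 40th percentile of all probe sets. It passed 5 of the 7 (Gata2, Gata3, Tal1, Lhx1 and Lhx5) and 12959 genes in all, and En1 and En2 lay below it. Of those 5, Gata3, Tal1 and Lhx5 had both cochlear nucleus arrays under the filter and so passed through the other nuclei.

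Expression was measured on 6 Affymetrix Mouse 430 2.0 arrays in 3 auditory brainstem nuclei of male C57BL/6J mice, for which the labels name no treatment and no genetic change. They comprised the ventral cochlear nucleus (VCN), where the auditory nerve ends, and 2 nuclei of the superior olivary complex, namely the lateral superior olive (LSO) and the medial nucleus of the trapezoid body, abbreviated MNTB. Each nucleus gave 1 array at postnatal day 3 (P3), from the pooled tissue of 6 animals, and 1 at postnatal day 14 (P14), from the pooled tissue of 3. No nucleus was repeated at an age, so a single value carries no replicate error, the order of neighbouring values cannot be set against a spread, and the number of arrays limits the precision. Pool size went with age, and effects of pool size and of age cannot be told apart. The array medians were 6.27 to 6.31 log2 units. The lowest control probe sets on the arrays, 3 sets for a bacterial gene, lay between 2.84 and 4.42, and a value in that range is called at the level of the controls.

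GATA2 and GATA3 are zinc finger proteins, and TAL1 is a basic helix-loop-helix protein that pairs with E proteins on E-box motifs. In the mouse spinal cord and brainstem the 3 proteins act together in newborn GABAergic and glycinergic neurons, and outside the inhibitory lineages GATA2 and GATA3 serve serotonergic neurons, while GATA2 and TAL1 also serve blood and endothelial cells. LHX1 and LHX5 are LIM homeodomain proteins that, with PAX2, keep the inhibitory transmitter type of dorsal spinal neurons, and both also act in cerebellar Purkinje cells. EN1 is a homeodomain protein that marks the V1 inhibitory neurons of the spinal cord, and in the mouse superior olive the neurons with a history of En1 expression include those of the MNTB. EN2, its paralogue, is best known from the midbrain and cerebellum.

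The promoters of Gata3, Tal1 and En1 are shown because in these genes VCN was at or near the level of the controls and the olivary nuclei were above it. Sequences are from RefSeq on GRCm38.p6, run from 250 bases before to 50 after the transcription start, and read along the gene's strand. Capitals mark matches, on either strand, to GATAA (the core of a GATA site), CANNTG (an E-box) or TAATTA (a homeodomain core), and in TTATC the match is on the opposite strand. The Gata3 promoter is at chr2:9878551-9878850 on the minus strand, and both Tal1 starts (chr4:115056176-115056475 and chr4:115057561-115057860) and En1 (chr1:120602237-120602536) are on the plus strand.
Gata3: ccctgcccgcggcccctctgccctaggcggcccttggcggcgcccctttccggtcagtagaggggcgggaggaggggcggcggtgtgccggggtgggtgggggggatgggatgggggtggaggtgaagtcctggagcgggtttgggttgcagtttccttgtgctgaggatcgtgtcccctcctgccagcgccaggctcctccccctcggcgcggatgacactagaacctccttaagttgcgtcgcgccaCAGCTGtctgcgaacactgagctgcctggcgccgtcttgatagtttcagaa
Tal1, first start: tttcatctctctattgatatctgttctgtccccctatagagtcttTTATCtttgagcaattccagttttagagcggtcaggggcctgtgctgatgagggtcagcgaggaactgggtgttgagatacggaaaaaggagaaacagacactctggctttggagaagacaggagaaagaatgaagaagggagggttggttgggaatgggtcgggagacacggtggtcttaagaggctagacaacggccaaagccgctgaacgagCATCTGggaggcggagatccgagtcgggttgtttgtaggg
Tal1, second start: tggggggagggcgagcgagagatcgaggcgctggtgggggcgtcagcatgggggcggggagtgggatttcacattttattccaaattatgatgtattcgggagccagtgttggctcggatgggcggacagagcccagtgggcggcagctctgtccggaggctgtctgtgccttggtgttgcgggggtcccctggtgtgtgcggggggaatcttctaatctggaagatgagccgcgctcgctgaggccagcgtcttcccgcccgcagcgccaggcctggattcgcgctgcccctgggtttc
En1: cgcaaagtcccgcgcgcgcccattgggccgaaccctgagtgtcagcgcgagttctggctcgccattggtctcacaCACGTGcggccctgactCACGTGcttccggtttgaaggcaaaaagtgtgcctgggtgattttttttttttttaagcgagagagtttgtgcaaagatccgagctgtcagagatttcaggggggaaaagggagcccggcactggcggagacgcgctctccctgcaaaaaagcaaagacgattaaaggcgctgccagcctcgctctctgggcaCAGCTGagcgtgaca

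Positions are those of a match's first base, counted from the start base. Gata3 had 1 E-box, which began 1 base before the start, and no GATAA in this window. The first start of Tal1 had 1 GATAA match, 205 bases upstream, and 1 E-box 10 bases downstream, whereas the second start had neither. En1 had 3 E-boxes, 175 and 158 bases upstream and 35 bases downstream. Promoters were in the table for 6 of the 8 genes (10 starts), and Lhx5 and En2 had none there. Over the 10 promoters GATAA was found in 1, CANNTG in 6 and TAATTA in 0. Among all 32851 promoters of the same length these motifs were found in 25.4%, 72.3% and 5.29%. The match is one of letters, and the arrays measured no binding. The GC content of the Gata3 promoter was 67.3%, that of the Tal1 starts was 50.7% and 64.3% and that of En1 was 57%, against a median of 52.7% over all promoters.

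Gata3 was at the level of the controls in VCN and well above it in both olivary nuclei. At P3 its values (probe set 1448886_at) were 3.84 in VCN, 7.44 in LSO and 7.75 in MNTB, and at P14 they were 3.96, 6.76 and 6.91. All 4 olivary arrays lay above both VCN arrays. Because both VCN values are no more than the controls, the difference between the mean of LSO and MNTB and VCN is a bound, and with VCN raised to a floor of 4.47 log2 units (the 25th percentile of all probe sets) it was at least 2.74 log2 units, or at least 6.69-fold. In bulk tissue such a difference can come from fewer cells of a type or from less RNA per cell, which cannot be told apart here.

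Tal1 followed the same order of nuclei. At P3 it measured (probe set 1449389_at) 4.06 in VCN, 7.31 in LSO and 7.86 in MNTB, followed by 4.93, 6.60 and 7.19 at P14. VCN was at the level of the controls at P3 and above it at P14, and all 4 olivary arrays lay above both. The gap to the mean of the olivary nuclei was 1.96 log2 units at P14. With VCN at P3 raised to the floor, the mean over both ages was at least 2.54.

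Gata2, which in the V2b inhibitory neurons of the spinal cord is switched on before Gata3, was present in all 3 nuclei. Its values (probe set 1450333_a_at) were 7.19 (VCN), 7.84 (LSO) and 8.27 (MNTB) at P3, and 6.91, 7.56 and 7.60 at P14. The 4 olivary arrays were above both VCN arrays, but the mean gap was 0.77 log2 units (1.7-fold), below the bounds for Gata3 and Tal1. LSO and MNTB differed by only 0.04 at P14. The other Gata2 probe set (1428816_a_at) gave 6.43, 7.92 and 8.68 at P3 and 6.65, 7.79 and 7.24 at P14. It kept VCN lowest with a wider gap of 1.37 log2 units (2.58-fold) and placed LSO above MNTB at P14.

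**Figure D1:**
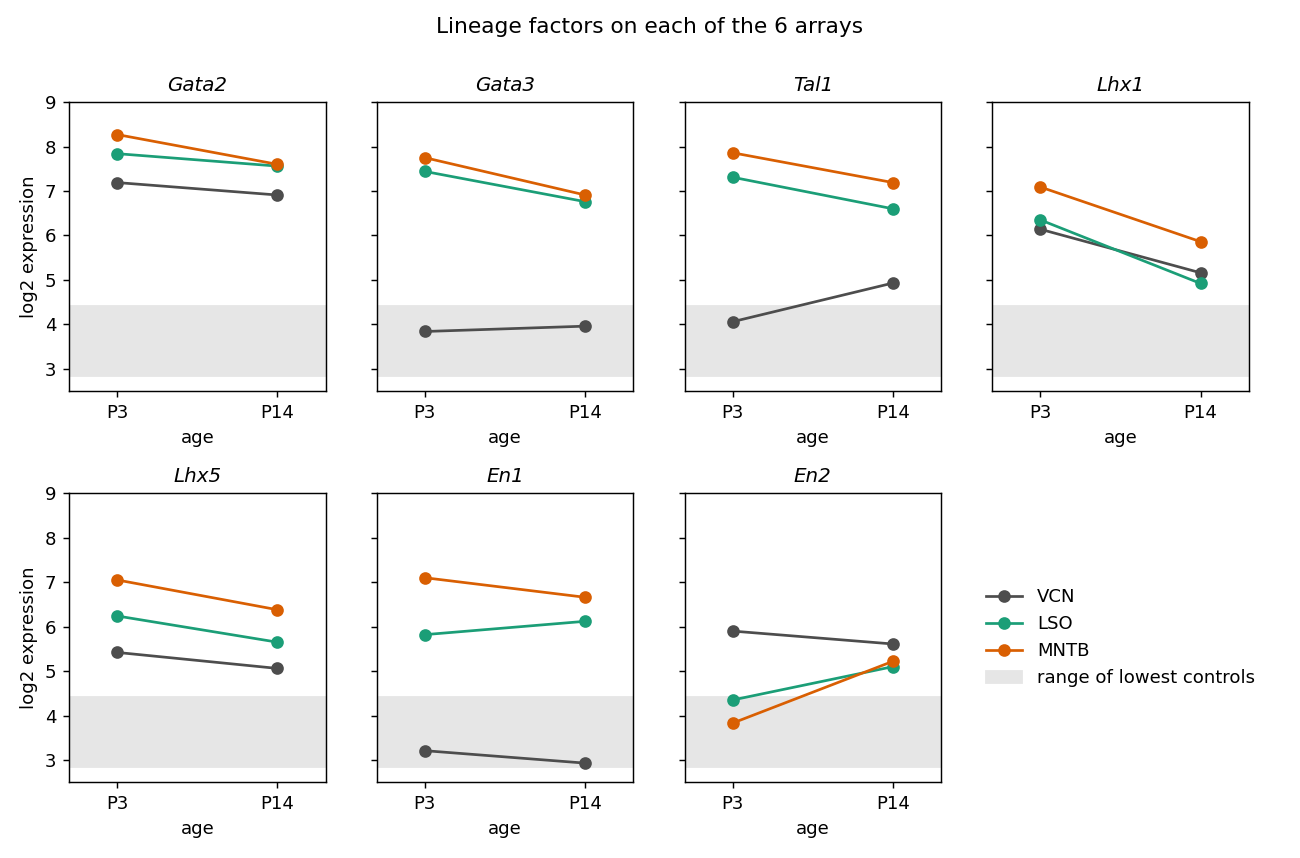
Log2 expression (vertical axis) of the 7 measured lineage factors on each of the 6 arrays, by age (horizontal axis) and nucleus (colour), 1 array per point, with the range of the lowest controls (2.84 to 4.42) in grey. Gata3 and En1 lie in the grey range in VCN at both ages and above it in LSO and MNTB, and En2 shows the opposite order.

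En1, like Gata3, was at the level of the controls in VCN, and its mean over the arrays (5.31) was under the filter. It was 3.21 (VCN), 5.82 (LSO) and 7.10 (MNTB) at P3, and 2.93, 6.12 and 6.66 at P14 (probe set 1418618_at). All 4 olivary arrays lay above the controls. With VCN at the floor the gap was at least 1.95 log2 units, or at least 3.87-fold.

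En2 ran the other way. Its values (probe set 1418868_at) were 5.90 (VCN), 4.35 (LSO) and 3.83 (MNTB) at P3, and 5.61, 5.10 and 5.22 at P14. Both olivary nuclei were at the level of the controls at P3 and above it at P14. VCN was higher than all 4 olivary arrays, with a gap of -0.45 log2 units (olive minus VCN) at P14. With the olivary P3 values raised to the floor, the mean gap over both ages was -0.94. Markers of the cerebellar granule lineage, a cell type that the cochlear nucleus shares with the cerebellum, were also highest in VCN. The mean of the 7 list members was 7.98 (P3) and 8.44 (P14) in VCN, against 5.22 to 6.11 in the olivary nuclei. All 4 olivary arrays lay below VCN for 5 of 7, beside 3.20% of all genes. Zic1, a zinc finger factor of that lineage with the widest gap of the list, was 12.45 (VCN), 7.29 (LSO) and 6.14 (MNTB) at P3. The list was not uniform. Gabra6 was at the level of the controls in all 3 nuclei at P3 (3.61, 3.60 and 3.41), and Cbln3 was 5.27, 4.17 and 5.13. At P14 Gabra6 was 7.97, 4.37 and 3.26, and Cbln3 was 8.54, 5.51 and 6.53. The part of this lineage in the En2 values was not tested.

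Lhx5 was graded over the nuclei, lowest in VCN and highest in MNTB at both ages. It measured (probe set 1420348_at) 5.42 (VCN), 6.24 (LSO) and 7.05 (MNTB) at P3, and 5.06, 5.65 and 6.38 at P14. The olivary arrays lay above both VCN arrays with a mean gap of 1.09 log2 units, or 2.12-fold. Lhx1 was not separated in this way. Its values (probe set 1421951_at) were 6.14, 6.35 and 7.09 in VCN, LSO and MNTB at P3, and 5.16, 4.92 and 5.86 at P14. MNTB was highest at each age, whereas LSO was 0.21 log2 units above VCN at P3 and -0.24 relative to it at P14. The mean gap of the olivary nuclei was 0.40 log2 units, or 1.32-fold. The other Lhx1 probe set (1450428_at) had MNTB highest too, with 5.19, 6.04 and 6.06 at P3 and 3.67, 4.03 and 4.53 at P14.

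Of the 7 measured genes, 5 (Gata2, Gata3, Tal1, Lhx5 and En1) had all 4 olivary arrays above both VCN arrays, which 4.58% of all 18194 genes did (4.04% of those past the filter, where 4 of 5 did). En2 was the 1 gene with all 4 below, as were 3.20% of all genes (2.97% past the filter). The median gap was 1.09 log2 units over the 7 genes and 0.03 over all genes. These counts describe genes that were chosen on the same contrast and lend it no support.

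Within the superior olive, MNTB was above LSO at both ages for 6 of the 7 genes, as it was for 26.7% of all genes. The MNTB is made up largely of glycinergic principal cells, whereas the LSO holds both excitatory and inhibitory output neurons. The part of this make-up in the values was not tested. The difference of MNTB minus LSO was largest for En1 at P3 (1.27 log2 units, and 0.54 at P14). It was 0.74 and 0.94 for Lhx1, 0.81 and 0.73 for Lhx5 and 0.56 and 0.59 for Tal1, and for Gata3 only 0.31 and 0.15. For Gata2 it was 0.44 and 0.04, and the other Gata2 probe set gave 0.76 at P3 and -0.56 at P14. En2 was the exception, with -0.51 at P3 and 0.12 at P14. With 1 array per nucleus and age, none of these differences has an error of its own.

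**Figure D2:**
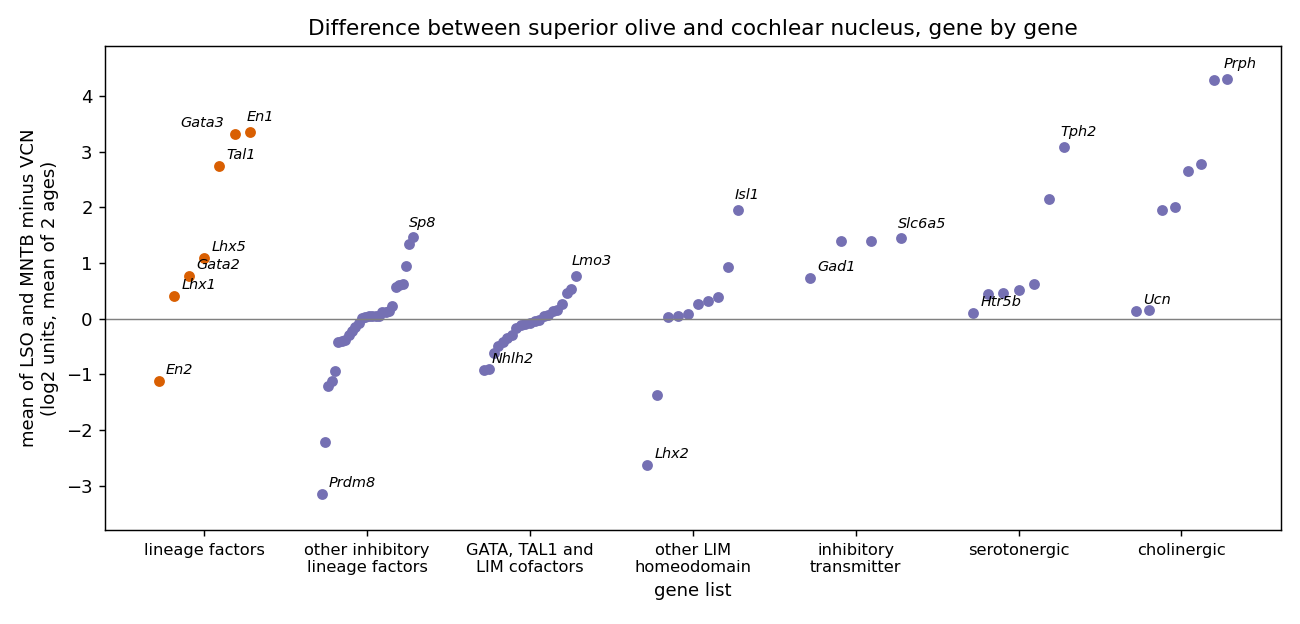
Mean of LSO and MNTB minus VCN in log2 units, averaged over both ages (vertical axis), for each measured gene of 7 gene lists (horizontal axis), 1 point per gene with the ends of each list named. Gata3, Tal1 and En1 lie at 2.74 to 3.36 as measured, with VCN values at the level of the controls among them, the 4 inhibitory transmitter genes at 0.73 to 1.44, and the other inhibitory lineage factors spread from -3.16 to 1.46.

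The second question was how the factors changed between P3, before hearing begins in mice, and P14, just after it. The choice of the genes did not use age, so this contrast was tested, with limma over all tested genes, age and nucleus as additive terms and Benjamini-Hochberg adjustment. Both LIM homeodomain genes fell, and no gene of the 5 tested rose. Lhx1 fell by 1.21 ± 0.14 log2 units (standard error, adjusted p = 0.00182), or 2.32-fold, and was lower at P14 in 3 of 3 nuclei. Nucleus by nucleus the difference was -1.43 for LSO, -1.23 for MNTB and -0.98 for VCN. Its other probe set gave -1.68 ± 0.15 (adjusted p = 0.00188 over all probe sets), with the P14 values of VCN and LSO at the level of the controls. Lhx5 fell by 0.54 ± 0.13 log2 units (adjusted p = 0.0198), or 1.46-fold, with -0.37 in VCN, -0.59 in LSO and -0.67 in MNTB. The call for Lhx5 was lost when either LSO array (-0.52, adjusted p = 0.0929 and 0.0942) or either MNTB array (-0.48, adjusted p = 0.0984 and 0.102) was left out.

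These 2 calls among 5 stand beside 17.7% of all tested genes called lower at P14, 23.4% called higher and 41.0% called in either direction. The median change was -0.46 log2 units over the 5 genes and 0.03 over all tested genes. The error of these tests starts from the scatter of a gene's age differences over the 3 nuclei (2 residual degrees of freedom). limma draws it towards the scatter of genes at a similar level (3.946 prior degrees of freedom). A printed standard error can therefore differ from the gene's own scatter. The p-values speak of repetition over nuclei and not over animals, which were pooled. The sources used here do not say whether 1 set of animals supplied all nuclei of an age.

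The other 3 tested genes did not pass. Gata2 gave -0.41 ± 0.13 (adjusted p = 0.0533), with -0.28 in VCN, -0.28 in LSO and -0.67 in MNTB, and it passed under 3 of the alternatives. Its other probe set gave -0.45 ± 0.32 (adjusted p = 0.36). Gata3 gave -0.46 ± 0.21 (adjusted p = 0.127). The Gata3 values in the olivary nuclei were -0.67 in LSO and -0.83 in MNTB, whereas the 0.12 in VCN was a difference of 2 values at the level of the controls. Tal1 gave -0.17 ± 0.32 (adjusted p = 0.703), with -0.71 in LSO and -0.68 in MNTB against 0.87 in VCN. Without either VCN array, which leaves the age contrast to LSO and MNTB, Gata3 was at -0.75 and Tal1 at -0.69. Leaving out either VCN array gives the same contrast, on the arrays through which both genes passed the filter. These values therefore add no support for a fall. Without an LSO array Gata3 was at -0.36 and Tal1 at 0.10. Without an MNTB array Gata3 was at -0.28 and Tal1 at 0.08.

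En1 and En2 entered only the fit without a filter. En1 gave -0.14 ± 0.17 (adjusted p = 0.6), with -0.43 in MNTB, 0.29 in LSO and, between 2 values at the level of the controls, -0.28 in VCN. En2 gave 0.62 ± 0.31 (adjusted p = 0.204), with 1.39 in MNTB, 0.75 in LSO and -0.29 in VCN. Without a VCN array the En2 value was 1.07, with both olivary P3 values at the level of the controls, and without an MNTB array it was 0.23. In MNTB 6 of the 7 genes had a lower value at P14, and in LSO and in VCN 5 of 7 did. The share of all genes with a lower value is not given here.

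**Figure D3:**
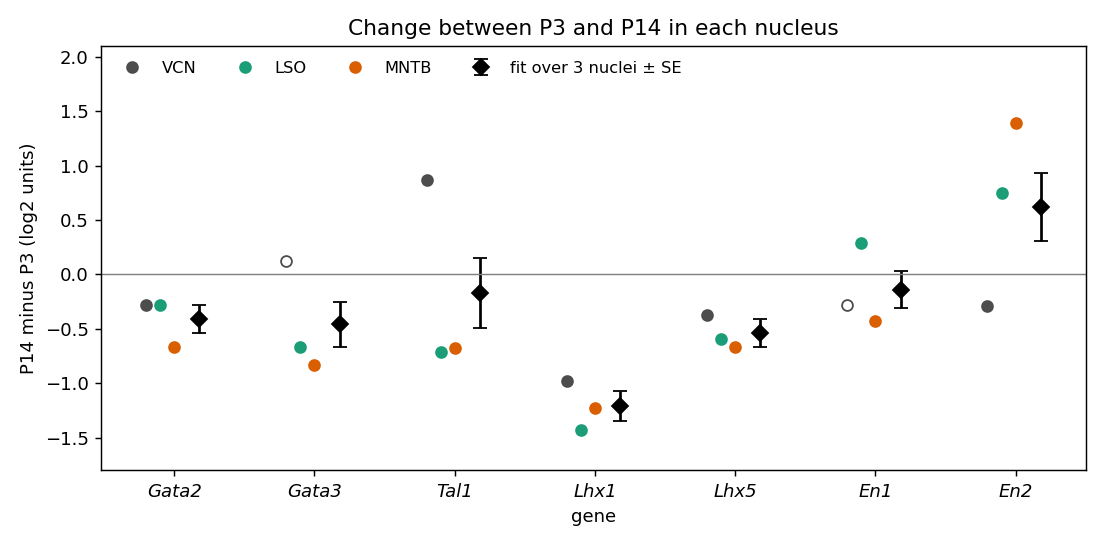
Difference of P14 minus P3 in log2 units (vertical axis) for each of the 7 measured genes (horizontal axis), 1 coloured point per nucleus and a black diamond for the fit over 3 nuclei with its standard error; an open point marks 2 arrays at the level of the controls. The points of Lhx1 lie between -1.43 and -0.98, and those of Tal1 fall on both sides of 0.

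The genes differed in how closely they moved together over the 6 arrays, which share their ages and nuclei, so the coefficients below only describe the profiles (n = 6 arrays). Gata3, Tal1 and En1 were the most alike, with Pearson's r of 0.98 for Gata3 with Tal1, 0.97 for Gata3 with En1 and 0.95 for Tal1 with En1. Gata2 was most like Lhx5 (0.95) and then Gata3 (0.91). Lhx1 stood apart from that group, with 0.42, 0.41 and 0.39 to Gata3, Tal1 and En1, and was nearest to Lhx5 (0.78). En2 had a negative coefficient with all 6 others, from -0.93 with Gata2 to -0.65 with Lhx1.

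Outside the 8 genes, profiles were compared over the 3442 tested genes that spanned at least 1 log2 unit. The 3 most like Gata3 were Satb1 (Pearson's r of 0.984), a chromatin organiser, Crhbp (0.982), the binding protein of corticotropin-releasing hormone, and Tal1 itself (0.980). Crhbp was 5.30 (VCN), 9.03 (LSO) and 9.42 (MNTB) at P3, and 4.48, 7.74 and 8.67 at P14. Tal1 was most like Gata3, then Satb1 (0.979) and the collagen gene Col19a1 (0.963). Satb1 spanned less than Gata3, from 8.58 in VCN at P14 to 10.14 in MNTB at P3. The nearest to Gata2 were Col16a1 (0.995), Gm11627 (0.990) and Spry4 (0.989), an inhibitor of receptor tyrosine kinase signalling. Those nearest to Lhx5 were the lipid droplet protein gene Plin2 (0.996), the protocadherin gene Pcdh8 (0.984) and Gchfr (0.982), a regulator of tetrahydrobiopterin synthesis. Lhx1 was closest to Chek1 (0.980), a cell cycle checkpoint kinase, Kcnq3 (0.970), a subunit of the M-type potassium channel, and Ncapd2 (0.962), a condensin subunit.

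The genes of proteins that work with these factors were counted in the same way. LMO and LDB proteins bridge GATA and TAL1 on DNA, and LDB1 also binds LIM homeodomain proteins. Of 21 such cofactors and relatives 18 were tested, and 0 of them had all 4 olivary arrays above VCN, while 2 had all 4 below, beside 4.04% and 2.97% of all tested genes. The largest gap towards the olive was that of Lmo3 (0.76 log2 units), and the median gap over the 18 was -0.06. For age, 2 rose and 9 fell, with a median of -0.47, beside 23.4% of all tested genes that rose and 17.7% that fell. Runx1t1, a corepressor of the ETO family, fell by 1.99 ± 0.11 log2 units (adjusted p = 0.000389), and Lmo1 fell by 1.05 ± 0.17 (adjusted p = 0.00513). Lyl1, a close relative of Tal1, rose by 0.62 ± 0.16 (adjusted p = 0.0246) and Lmo2, a partner of TAL1 in blood cells, rose by 0.44 ± 0.10 (adjusted p = 0.0146).

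Other factors of the inhibitory lineages made up a list of 35 genes, of which 28 were measured and 16 passed the filter. Among these 16, all 4 olivary arrays lay above VCN for 1 and below for 1, near the 4.04% and 2.97% of all tested genes, and the median gap was -0.15. Over the 28 measured genes 3 were above and 1 below, beside 4.58% and 3.20% of all genes. The 1 tested gene above was Nkx6-1, a homeodomain factor of the ventral progenitors, with 6.95 (VCN), 9.02 (LSO) and 8.72 (MNTB) at P3 and 7.14, 7.93 and 7.86 at P14. The 1 below was Prdm8, a gene of the PRDM zinc finger family, with a gap of -3.16 log2 units. Ptf1a, the factor of GABAergic neurons in cerebellum and cochlear nucleus, was at the level of the controls on all 6 arrays, as were Gsx2 and Wt1. For age, 1 rose and 6 fell, beside 23.4% and 17.7% of all tested genes, with a median of -0.59. Tfap2b, an AP-2 factor, fell by 2.20 ± 0.37 (adjusted p = 0.0063), the corepressor gene Skor1 fell by 1.70 ± 0.15 (adjusted p = 0.000847), and Nkx6-2, also a factor of oligodendrocytes, rose by 1.13 ± 0.11 (adjusted p = 0.00101).

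Of the 10 other LIM homeodomain genes 3 were tested, and all 3 fell (the median change was -0.91), beside 17.7% of all tested genes. Lhx2 fell by 1.34 ± 0.25 (adjusted p = 0.0082) and Lmx1b, a factor of serotonergic and dorsal horn neurons, fell by 0.91 ± 0.25 (adjusted p = 0.0324). Lhx2 was higher in VCN, with a gap of -2.64 log2 units. The list did not lean to VCN as a whole. Over its 10 measured genes 2 had all 4 olivary arrays above VCN and 2 had them below, beside 4.58% and 3.20% of all genes. Isl1, below the filter, was 8.91 (P3) and 7.10 (P14) in LSO and at the level of the controls in VCN and MNTB. Of the 10 other GATA and PAX genes 4 were tested. Of these 1 fell (Pax6, by 0.99 ± 0.12, adjusted p = 0.00223) and 0 rose, beside 17.7% and 23.4% of all tested genes. Pax3 had the widest gap of these, -2.32 log2 units, again towards VCN. Gata1 and Pax7 were at the level of the controls on all 6 arrays.

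The genes that give neurons their inhibitory transmitter were higher in the olive as well. All 4 measured genes of the list, Slc6a5, Slc32a1, Gad1 and Gad2, had their 4 olivary arrays above both VCN arrays. This was so for 4.04% of all tested genes. Slc6a5, the glycine transporter GlyT2, was 10.89 (VCN), 11.30 (LSO) and 12.50 (MNTB) at P3, and 10.74, 12.22 and 13.02 at P14, with a mean gap of 1.44 log2 units. The gap was 1.40 for Slc32a1, the vesicular transporter of GABA and glycine, 1.40 for Gad2 and 0.73 for Gad1, which make GABA. None of the 4 passed for age in limma (0 at an unadjusted p under 0.05 as well), with a median change of 0.07. Slc17a6, the vesicular glutamate transporter VGLUT2, was higher in VCN by contrast, with a gap of -1.91 log2 units.

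Several other cell types use the same factors, and their markers were read beside these results. Serotonergic neurons, which lie along the brainstem midline near the MNTB and use Gata2 and Gata3, had higher marker values in the olive. Tph2, the enzyme of neuronal serotonin synthesis, was 3.76 (VCN), 5.50 (LSO) and 7.75 (MNTB) at P3, and 3.20, 6.43 and 6.61 at P14. Slc6a4, the serotonin transporter, was 6.26, 8.58 and 9.17 at P3 and 5.83, 7.12 and 7.92 at P14. For both genes VCN was lowest and MNTB highest at each age. This order was not particular to them. Gata2, Gata3, Tal1, Lhx5 and En1 had it, and so did the transmitter genes Slc6a5, Slc32a1 and Gad2. Gad1 did not, since at P14 it was 9.70 in LSO and 9.01 in MNTB. The other Gata2 probe set did not either, with 7.79 in LSO and 7.24 in MNTB at P14. The share of all genes with this order is not given here. With age, 2 of the 5 tested markers rose and 1 fell, beside 23.4% and 17.7% of all tested genes. Ddc, which makes serotonin and dopamine from their precursors, rose by 1.79 ± 0.15 log2 units (adjusted p = 0.000714), the monoamine oxidase gene Maob rose by 1.68 ± 0.16 (adjusted p = 0.000967), and Slc6a4 fell by 1.05 ± 0.21 (adjusted p = 0.0115). Of the 7 measured markers 4 had all 4 olivary arrays above VCN, beside 4.58% of all genes. Htr5b was at the level of the controls throughout. The mean of the list was 5.66 and 6.14 in VCN (P3 and P14), 6.52 and 7.18 in LSO and 7.00 and 7.11 in MNTB. The part of serotonergic neurons in the values of Gata2, Gata3 and the others was not tested.

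Cholinergic neurons of the olivocochlear system and motor nuclei marked LSO. Their list of 8 measured genes had a mean of 8.64 (P3) and 8.15 (P14) in LSO, against 4.43 to 5.25 on the other 4 arrays. Slc18a3, the vesicular acetylcholine transporter, was 9.80 and 9.88 in LSO, 5.46 and 5.17 in MNTB and 4.91 and 4.71 in VCN. Not every gene of the list was low in MNTB. Prph was 7.69 (P3) and 6.24 (P14) there, against 4.65 and 5.06 in VCN and 11.86 and 10.87 in LSO. Chat was at the level of the controls on all arrays, LSO included. The part of these neurons in the LSO values of the lineage factors was not tested.

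**Figure D4:**
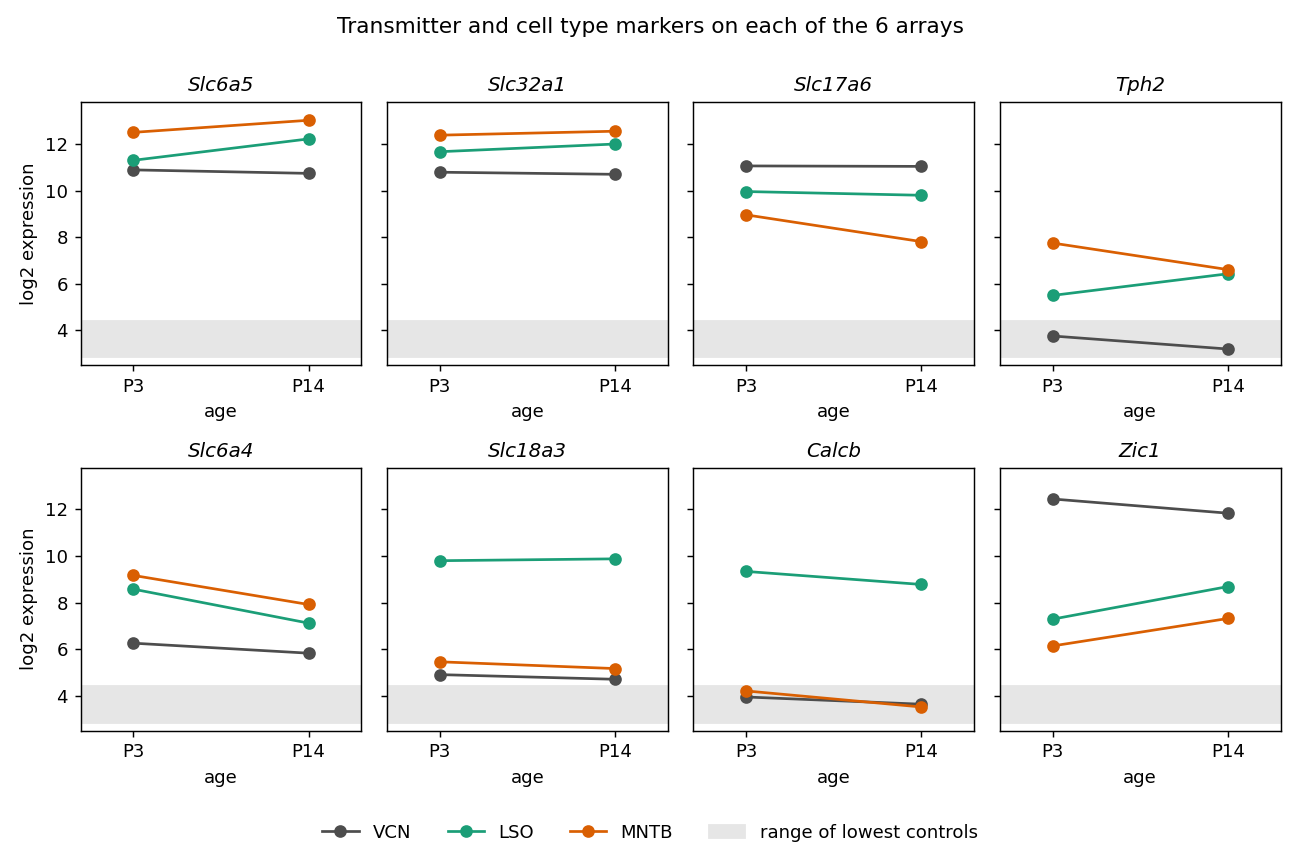
Log2 expression (vertical axis) of 8 transmitter and cell type markers on each of the 6 arrays, by age (horizontal axis) and nucleus (colour), 1 array per point, with the range of the lowest controls in grey. Tph2 and Slc6a4 are lowest in VCN and highest in MNTB, Slc18a3 and Calcb are high in LSO, and Zic1 and Slc17a6 are highest in VCN.

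Endothelial and blood markers were read for the same reason. None of the 9 measured endothelial markers had all 4 olivary arrays on 1 side of VCN. Over all genes only 4.58% had them above and 3.20% below. The endothelial list mean was 7.27 to 7.64 over the nuclei at P3 and 8.43 to 8.57 at P14. Of the endothelial markers 8 rose with age and 0 fell, beside 23.4% and 17.7% of all tested genes. Among the 8 were the VEGF receptor gene Flt1 (1.34 ± 0.12, adjusted p = 0.000808) and the transporter gene Slco1a4 (3.13 ± 0.27, adjusted p = 0.000798). Of the 7 measured markers of red blood cells 3 were tested and all 3 rose, beside 23.4% of all tested genes. The list mean was 5.33 to 5.51 at P3 and 5.87 to 5.90 at P14. Of the 7, Epor had all 4 olivary arrays above VCN and Gata1 all 4 below, and Gata1 was at the level of the controls throughout. The part of endothelial and blood cells in the values of Gata2 and Tal1 was not tested. Purkinje cell markers, of which 4 were measured, had 0 with the nuclei separated, and list means of 6.61 to 7.62. The neuronal list of 5 genes had means between 11.24 and 12.02 on all 6 arrays. With age 3 of the 5 fell, as Lhx1 and Lhx5 did, and 1 rose, beside 17.7% and 23.4% of all tested genes. Rbfox3, the neuronal nuclear protein NeuN, fell by 1.12 ± 0.21 log2 units (adjusted p = 0.00864), the synaptotagmin gene Syt1 fell by 1.03 ± 0.20 (adjusted p = 0.0104) and the neuronal tubulin gene Tubb3 fell by 0.37 ± 0.06 (adjusted p = 0.00598). Snap25, a synaptic fusion protein gene, rose by 0.28 ± 0.06 (adjusted p = 0.0148). The part of the neuronal share of the tissue in the falls of Lhx1 and Lhx5 was not tested.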

How the data were processed

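Per the labels' protocols, tissue was dissected from fresh slices of 200 µm, and 20 ng of DNase-treated RNA was amplified (Nugen WT Ovation Pico) and hybridised to the arrays. The authors deposited a log2 value for each probe set, computed with RMA per the submitters' processing notes. The sources used here name no RMA version, scan date or batch. The members, gene lists, tests and alternatives were chosen with earlier results of these data known.

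Of 45101 probe sets, 64 were controls, 34958 named 1 gene, 932 several and 9147 none. RefSeq held 34754 of those with 1 gene. For each gene the probe set with the highest mean was taken (names ending in _x_at only where no other existed). Genes at or above the 40th percentile were fitted with limma 3.58.1 (R 4.3.3), in an additive model of age and nucleus with a variance trend, 2 residual and 3.946 prior degrees of freedom, two-sided tests, Benjamini-Hochberg adjustment over 12959 genes and a threshold of 0.05. Age by nucleus has no residual degrees of freedom and was described. The test for age was checked on simulated data with 200 changed genes. It called 62% of changes of 1 log2 unit and 89% of those of 2, and 8 of its 159 calls were false. Smaller changes were not simulated, so a gene without a call may still have changed. Tables and motif matches were made with Python 3.11.15.

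Named were the 8 members, for each tested member with a range of at least 1 log2 unit the 3 tested genes of highest Pearson's r, and from each list up to 2 rises, 2 falls and the largest gap in each direction. Of marker lists the defining markers were named.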

Additional observations from a re-analysis of the deposited data

Results flagged for a closer look

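The age difference had opposite signs between nuclei for Tal1, En1 and En2, counting nuclei with at least 1 array above the level of the controls. Gata3 also had opposite signs (0.12 in VCN, -0.83 in MNTB), but both of its VCN values were at that level. These differences were not tested, since each nucleus has 1 array per age. For Tal1, P14 minus P3 was 0.87 in VCN and -0.71 in LSO, a difference of 1.58 log2 units, and the VCN value at P3 was at the level of the controls. For En1 it was 0.29 in LSO and -0.43 in MNTB, a difference of 0.73. For En2 it was 1.39 in MNTB and -0.29 in VCN, a difference of 1.68, and the MNTB value at P3 was at the level of the controls.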

How the results depend on the processing

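Of 191 alternative values, 155 counted as the same, 16 moved, 9 gained and 5 lost a call and 6 changed sign. The same meant an unchanged direction and call, a count within 1.5 times, or an untested value within 1 SD. A count could so gain a gene and stay the same. The labels fit the SD of a gene's gaps at the 2 ages, which lay far apart for Tal1 (3.52 and 1.96). The mean gap of Tal1 therefore counted as the same from 1.96 to 3.52. The 2 members called for age became 1 with a filter at the 60th percentile (Gata2, the only member left), 1 when the probe sets of a gene were summarised by their median (Lhx5, since Lhx1 then missed the filter), 1 without the nucleus term (Lhx1), and 1 to 4 when 1 array was left out. It was 3, with Gata2 added, under quantile normalization and without the variance trend. The 4 came without either VCN array (Gata3, Tal1, Lhx1 and Lhx5), and the 1 (Lhx1) without an LSO or MNTB array. Leaving out either VCN array gives the same contrast of LSO and MNTB, the nuclei through which Gata3 and Tal1 passed the filter. Their calls there add no support for a fall. Lhx1 passed in 14 of 14 alternatives that gave a p, Lhx5 in 9 of 14. Gata2 passed with quantile normalization (-0.48, adjusted p = 0.0299), without the variance trend (adjusted p = 0.0470) and with the 60th percentile filter (adjusted p = 0.0465). With 1 array left out Tal1 ranged from -0.69 to 0.10, with a changed sign without an LSO array (0.10) or an MNTB array (0.08), and En1 ranged from -0.36 to 0.01, with a changed sign without an MNTB array (0.01). The cause was not tested. The 5 members above VCN on all 4 olivary arrays became 1 (Gata2) with the 60th percentile filter, which leaves that gene alone, and stayed 5 under each left-out array. Over all genes the calls for age, 2288 lower and 3030 higher, were 1263 to 2139 and 1880 to 2574 with 1 array left out, lowest without an MNTB array. No paired analysis was possible because the labels give no replicate numbers, and nucleus was already a term. Signal near the controls limits the VCN values of Gata3, Tal1 and En1 and the P3 values of En2 in the olive.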
